A study of Mus musculus with 18 samples.

Results

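The desmosome genes described here are 10 of the 23951 genes in the expression table, chosen by name because they encode the building blocks of desmosomes. They are the desmogleins Dsg1a, Dsg1b, Dsg2 and Dsg3, the desmocollins Dsc1, Dsc2 and Dsc3, and the plaque proteins plakoglobin (Jup), plakophilin 1 (Pkp1) and desmoplakin (Dsp). All 10 passed the filter on low values, at least 1 FPKM (a level scaled for sequencing depth and divided by transcript length) in at least 3 libraries.

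Desmosomes are buttons of strong adhesion between epithelial cells, and in skin they hold keratinocytes together against mechanical stress. Desmogleins and desmocollins are transmembrane cadherins that bind their partners on the neighbouring cell, plakoglobin and plakophilins link the cadherin tails to desmoplakin, and desmoplakin ties the plaque to keratin filaments. Epidermal layers use different cadherins: Dsg3 and Dsc3 prevail in basal cells, Dsg1 and Dsc1 in differentiating suprabasal cells, while Dsg2 and Dsc2 are typical of simple epithelia and of hair follicles.

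RNA came from ear skin of 8-week-old mice of both sexes, all given 4 daily injections of 2 mg tamoxifen and killed at day 7. DKO* mice carried floxed JunB and c-Jun alleles, and control mice (Co) carried wild-type or heterozygous JunB and c-Jun. All mice also carried K5-Cre-ERT, a tamoxifen-dependent recombinase under the promoter of a basal keratin, and the mT/mG reporter, which switches a cell from red Tomato to green GFP on recombination. GFP cells of DKO* mice are therefore the mutant cells and Tomato (Tom) cells the non-mutant cells of the same mosaic skin. Live CD45-, CD49f-high cells were sorted as CD34+ bulge hair follicle stem cells (HF-SCs) or CD34- basal keratinocytes (b-KCs). Co mice 810, 825 and 828 gave HF-SC Co and b-KC Co, for which the labels name no colour, and DKO* mice 814, 815 and 817 gave GFP and Tom libraries of both cell types, so that 18 libraries form 6 groups of 3. Values below are listed in that order of mice.

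Implied depth was 16443700 to 26270400 reads per library, and 3 reads on 1 kb of transcript were worth 0.114 to 0.182 FPKM. The fewest reads implied for any desmosome gene in any library were about 301, for Dsc2, so counting error was small for all of them. Both targeted genes fell in GFP cells, as the labels have it: Jun was at 835 to 1086 FPKM in HF-SC Co and 30.4 to 88.4 in HF-SC GFP, and Junb at 737 to 772 FPKM in b-KC Co and 37.2 to 72.2 in b-KC GFP. They were also lower in cells labelled non-mutant. In b-KC Tom, Jun was at 163 to 400.4 FPKM against 876 to 1000 in Co (log2 fold change -1.94, adjusted p = 0.00114) and Junb at 208 to 397 (-1.27, adjusted p = 0.00308), and in HF-SC Tom Jun was at 308 to 614 (-1.296, adjusted p = 0.0155) while Junb, at 251 to 402 FPKM, did not pass (adjusted p = 0.147). Cd34 was at 640 to 889 FPKM in HF-SC Co, 161 to 228 in HF-SC GFP, 260 to 319 in HF-SC Tom and 0.341 to 2.53 over all b-KC libraries. Defining keratins were not measured above 0 in every library, since the files list Krt14 at 0 for the b-KCs of mouse 817 (both colours) and the Tom b-KCs of mouse 814, and Krt15 at 0 for the HF-SCs of mouse 828. Summed endothelial markers (8 genes, all above 0 in some library of each group) were at 415 to 1235 FPKM in HF-SC Tom against 43.2 to 72.6 in HF-SC Co, and summed leukocyte markers (8 genes, mostly Cd74) were at 90.04 to 806 FPKM over the DKO* groups against 3.91 to 8.85 in the Co groups, although leukocytes were gated out by CD45.

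JunB and c-Jun are subunits of AP-1, a transcription factor that binds the letters TGANTCA. The promoters of Jup and Dsp, 300 bases from 250 before to 50 after the RefSeq start (GRCm38.p6, another build than that of the expression values), are shown because they are the promoters of desmosome genes found in the sequence table, and capitals mark GC boxes (GGGCGG on either strand).
Jup, chr11:100397741-100398040, minus strand: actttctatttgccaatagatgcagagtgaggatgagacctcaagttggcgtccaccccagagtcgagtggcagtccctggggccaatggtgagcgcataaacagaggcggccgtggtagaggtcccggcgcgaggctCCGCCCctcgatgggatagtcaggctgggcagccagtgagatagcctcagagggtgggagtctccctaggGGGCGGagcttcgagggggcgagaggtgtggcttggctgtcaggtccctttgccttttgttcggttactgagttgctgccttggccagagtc
Dsp, chr13:38151044-38151343, plus strand: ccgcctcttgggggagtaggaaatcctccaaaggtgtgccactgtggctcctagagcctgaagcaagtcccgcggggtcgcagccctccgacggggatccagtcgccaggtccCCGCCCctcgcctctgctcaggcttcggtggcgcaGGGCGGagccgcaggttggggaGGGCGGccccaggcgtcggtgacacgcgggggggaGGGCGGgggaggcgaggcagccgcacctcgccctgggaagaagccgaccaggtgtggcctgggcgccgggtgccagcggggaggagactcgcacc
Neither window held the AP-1 letters on either strand, nor the CRE letters TGACGTCA, while 7.81% of 32851 promoters of the same length held the former and 1.79% the latter. The Jup window held 2 GC boxes and the Dsp window 4, a motif present in 35.7% of all promoters. The AP-1 and CRE letters share their ends, TGA and TCA, and the absence of letters from these windows says nothing of sites elsewhere.

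The cadherin genes lie together. On mouse chromosome 18 (NCBIM37), 643.6 kb from 20119431 to 20763022 hold 9 desmocollin and desmoglein genes in the order Dsc3, Dsc2, Dsc1, Dsg1c, Dsg1a, Dsg1b, Dsg4, Dsg3 and Dsg2, and 7 of these are among the genes described. Jup lies on chromosome 11 at 100230272 to 100259077, Dsp on chromosome 13 at 38243197 to 38290446, and Pkp1 on chromosome 1 at 137767972 to 137815784. Dsg1a and Dsg1b share much sequence: 31.3% of the 51-base windows of the Dsg1a transcript occur unchanged in Dsg1b, 52.0% with up to 2 mismatches, and 45.1% and 74.8% the other way. Their separate levels are uncertain for this reason, while the windows of Dsg2, Dsg3, Dsc1, Dsc2 and Dsc3 had no exact match in the other cadherins they were set against.

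In control skin, the question was which desmosome genes distinguish b-KCs from bulge HF-SCs of the same Co mice. Of the 10 genes, 5 were higher in b-KCs (Dsc1, Dsg1a, Pkp1, Dsg1b and Jup), Dsg3 was lower and 4 did not pass the test, with an adjusted p under 0.05 by limma on log2(FPKM + 1) as the threshold throughout. Across all 12751 genes tested, 27.3% were higher and 24.6% lower in this comparison. In bulk libraries, fewer cells of a type and less RNA per cell cannot be told apart.

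Dsg1a, which with Dsg1b encodes the desmoglein of the upper epidermis, was at 46.5, 84.7 and 63.2 FPKM in HF-SC Co and at 284, 331 and 294 in b-KC Co. Every b-KC library lay far above every HF-SC library, a difference of 2.25 ± 0.34 on the log2 scale (SE, n = 3 mice in each group, adjusted p = 5.66e-05). Dsg1b was at 6.32, 16.3 and 10.3 FPKM against 42.4, 47.2 and 38.8, again without overlap (log2 fold change 1.96 ± 0.33, adjusted p = 0.000143). The desmocollin of differentiating layers, Dsc1, differed in the same direction, from 6.77, 14.5 and 6.88 FPKM in HF-SC Co to 57.6, 48.1 and 41.0 in b-KC Co (2.33 ± 0.48, adjusted p = 0.000864). The summed level of 6 suprabasal keratinocyte markers differed in the same direction, at 765 to 976 FPKM in HF-SC Co and 6938 to 8633 in b-KC Co. Proliferation markers (5 of 5, sums of 23.1 to 29.2 against 159 to 168 FPKM) and sebaceous markers (3 of 4) were also higher in b-KC Co. Endothelial (8 of 8, sums of 43.2 to 72.6 against 0.914 to 2.16 FPKM), fibroblast (5 of 5 tested, with sums over all 6 listed of 45.9 to 95.5 against 4.28 to 6.16 FPKM) and bulge markers (5 of 6) were lower, as were 1 of 3 leukocyte and 1 of 5 melanocyte markers tested. The part of all these markers in the differences was not tested.

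Among plaque genes, Pkp1, which strengthens adhesion by clustering desmoplakin, was at 89.9, 136 and 94.6 FPKM in HF-SC Co and 456, 514 and 428 in b-KC Co (log2 fold change 2.13 ± 0.33, adjusted p = 7.30e-05). Jup, shared by desmosomes and adherens junctions, was at 186, 188 and 145 FPKM against 542, 496 and 468 (1.54 ± 0.31, adjusted p = 0.000611). Neither gene overlapped between the cell types. Dsp was at 244, 138 and 121 FPKM in HF-SC Co and 222, 245 and 231 in b-KC Co, with the HF-SC library of mouse 810 inside the b-KC range. Its difference of 0.54 ± 0.23 missed the threshold (adjusted p = 0.0629) but passed it when the mouse was a block (adjusted p = 0.0252) or without mouse 810 (log2 fold change 0.88, adjusted p = 0.00796).

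The remaining cadherins were not higher by the test. Dsg3, the desmoglein of basal cells, was at 191, 278 and 243 FPKM in HF-SC Co and only 94.95, 107 and 105 in b-KC Co (log2 fold change -1.19 ± 0.41, adjusted p = 0.0229). The groups did not overlap, yet this call was lost when any of the Co mice was left out (adjusted p 0.0695 without 810, 0.119 without 825 and 0.0963 without 828), where the fold change stayed between -1.29 and -1.10. Dsc3, its usual partner, had the highest mean FPKM of the 10 genes in both cell types (in b-KC Co its range overlapped that of Jup), at 410, 590 and 536 FPKM in HF-SC Co and 513, 631 and 580 in b-KC Co, and it did not pass the test (0.18 ± 0.30, adjusted p = 0.645). Dsg2 and Dsc2 were low, at 14.2 to 21.9 and 2.81 to 3.99 FPKM in HF-SC Co against 17.6 to 22.9 and 4.95 to 6.81 in b-KC Co, and neither passed (adjusted p = 0.624 and 0.122). For Dsc2 the libraries did not overlap, and it passed when only the Co groups were fitted (adjusted p = 0.00542). Without overlap, 6 genes were higher and 1 lower, where 37.4% and 32.2% of all genes were.

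By level per length, the order of group means in HF-SC Co was Dsc3, Dsg3, Jup, Dsp, Pkp1, Dsg1a, Dsg2, Dsg1b, Dsc1 and Dsc2. Neighbours whose ranges over the libraries overlapped were Jup and Dsp, Dsp and Pkp1, Dsg2 and Dsg1b, and Dsg1b and Dsc1. Within libraries, Dsp stood above Pkp1 and Dsg2 above Dsg1b in 3 of 3, and Jup above Dsp and Dsg1b above Dsc1 in 2 of 3. In b-KC Co it was Dsc3, Jup, Pkp1, Dsg1a, Dsp, Dsg3, Dsc1, Dsg1b, Dsg2 and Dsc2, where the ranges of Dsc3 and Jup, Jup and Pkp1, and Dsc1 and Dsg1b overlapped.

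**Figure D1:**
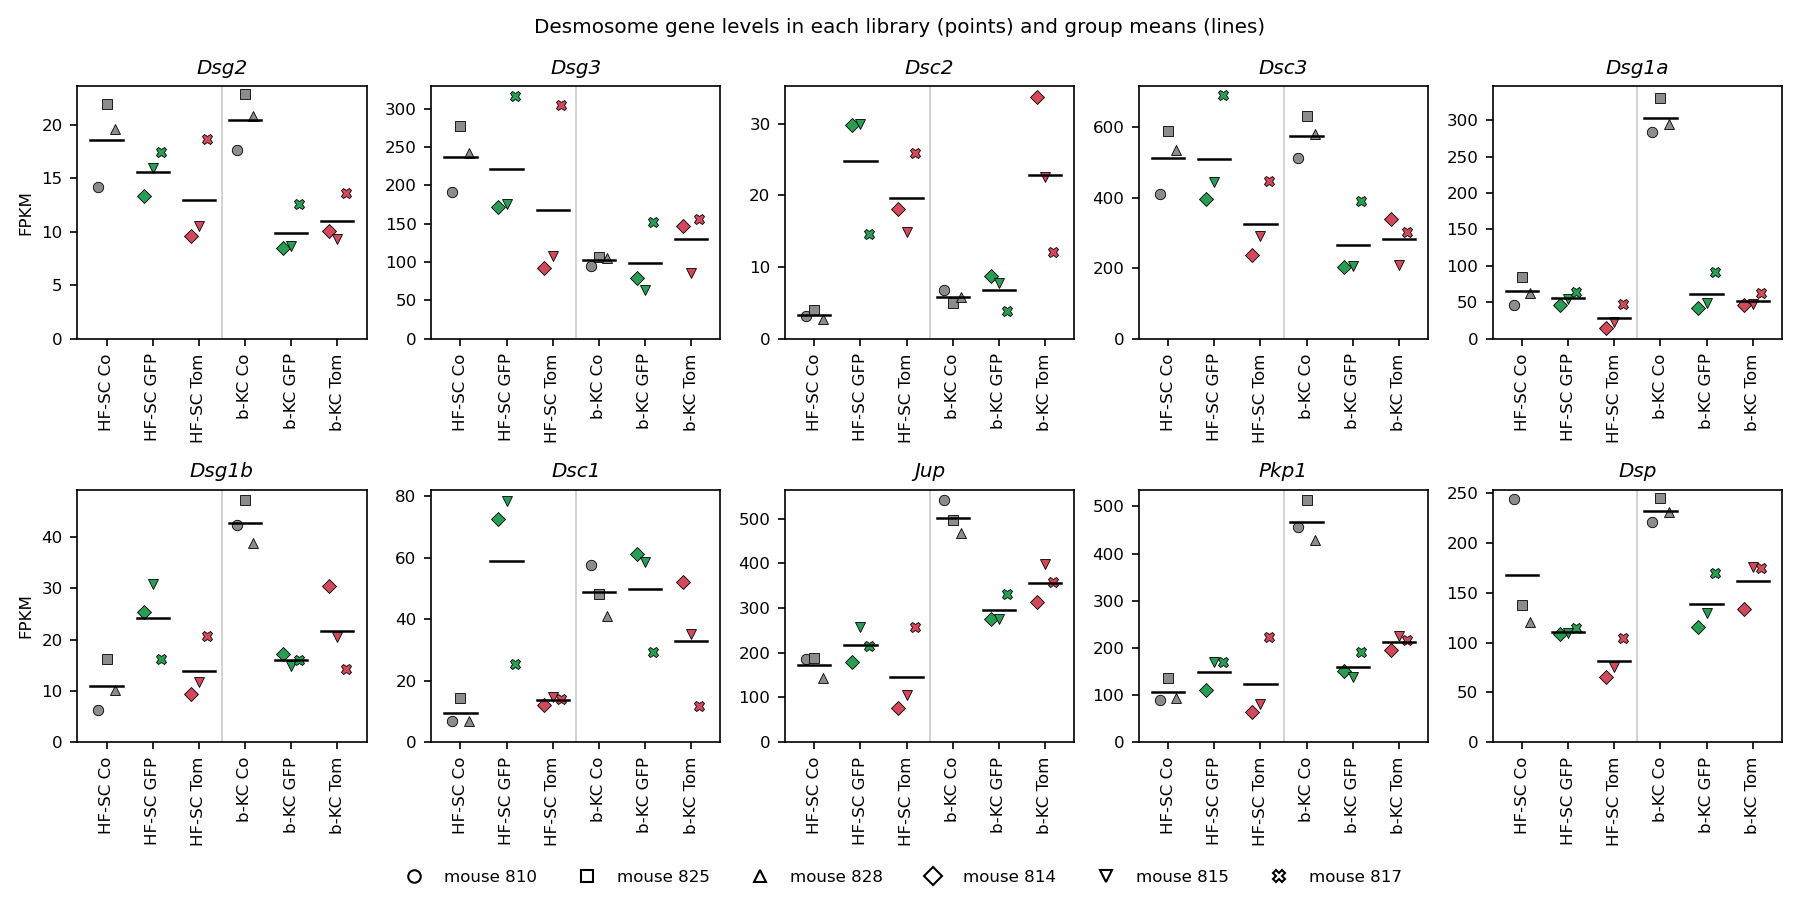
FPKM (linear axis from 0) of the 10 desmosome genes in each of 18 libraries, with 1 panel per gene, 1 symbol shape per mouse and a line at each group mean (n = 3 mice). Dsg1a in b-KC Co, at 284 to 331 FPKM, stands above all 15 other libraries, and Dsc2 is under 7 FPKM in both Co groups and at 12.1 to 33.7 FPKM in HF-SC GFP, HF-SC Tom and b-KC Tom.

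Mutant b-KCs had less of most desmosome transcripts than b-KCs of Co mice. Dsg1a, Pkp1, Dsg1b, Dsc3, Dsg2 and Dsp fell, which makes 6 of 10 genes against 21.3% of all genes tested (20.3% rose), while Jup, Dsg3, Dsc2 and Dsc1 did not pass. The median log2 fold change of the 10 genes was -0.88, beside -0.03 for all genes tested. In 7 of the 10, all GFP libraries lay under all Co libraries, which held for 31.0% of all genes (28.0% lay above).

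Among the 10 genes the largest of these changes was in Dsg1a, which went from 284, 331 and 294 FPKM in b-KC Co to 41.5, 49.6 and 91.2 in b-KC GFP (log2 fold change -2.38 ± 0.34, adjusted p = 0.000116). Even the highest GFP library, from mouse 817, stood far under the lowest Co library. Dsg1b went from 42.4, 47.2 and 38.8 FPKM to 17.2, 14.8 and 16.1 (-1.36 ± 0.33, adjusted p = 0.00451). Dsc1, in contrast, was at 61.2, 58.7 and 29.3 FPKM in b-KC GFP against 57.6, 48.1 and 41.0 in Co, a difference of -0.03 with a 95% interval from -1.06 to 0.99 (adjusted p = 0.964). Summed suprabasal markers were at 4904 to 6928 FPKM in b-KC GFP and 6938 to 8633 in Co, with 3 of 6 markers called lower. Of 5 proliferation markers 3 rose, to a sum of 254 to 408 FPKM from 159 to 168 in Co, 1 of 3 leukocyte markers rose, 1 of 6 bulge and 1 of 4 sebaceous markers fell, and no endothelial, fibroblast or melanocyte marker was called. The part of these markers in the changes of desmosome genes was not tested.

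Of the plaque genes, Pkp1 fell from 456, 514 and 428 FPKM in Co to 151, 139 and 191 in b-KC GFP, without overlap (log2 fold change -1.54 ± 0.33, adjusted p = 0.00224). Dsp, the anchor of keratin filaments, went from 222, 245 and 231 FPKM to 116, 130 and 170 (-0.76 ± 0.23, adjusted p = 0.0167). That call was lost without mouse 814, 815 or 825 (adjusted p 0.0813, 0.109 and 0.0596). Jup was at 276, 277 and 332 FPKM, under each of the Co values of 542, 496 and 468, and missed the threshold (-0.77 ± 0.31, adjusted p = 0.0551). It passed when only these groups were fitted (adjusted p = 0.00660), at a common 75th percentile (adjusted p = 0.0363), relative to pan-epithelial genes (adjusted p = 0.0289) and without mouse 817 (adjusted p = 0.00211).

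The remaining cadherins differed among themselves. Dsc3 was at 513, 631 and 580 FPKM in Co and 203, 205 and 391 in b-KC GFP (log2 fold change -1.17 ± 0.30, adjusted p = 0.00639), a call lost without mouse 815 (adjusted p = 0.0621). Dsg2 was at 17.6, 22.9 and 20.8 FPKM against 8.48, 8.67 and 12.5 (-0.99 ± 0.23, adjusted p = 0.00370). Both were lower in every GFP library. Dsg3 was at 79.0, 63.5 and 152 FPKM in b-KC GFP, on either side of the Co values of 94.95, 107 and 105 (adjusted p = 0.787). Dsc2 was at 8.72, 7.72 and 3.84 FPKM against 6.81, 4.95 and 5.82 (adjusted p = 0.802). Without mouse 817 both passed, Dsg3 at -0.52 (adjusted p = 0.0444) and Dsc2 at 0.43 (adjusted p = 0.0496), in a fit that called 59.4% of all genes against 41.6% with all mice.

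Non-mutant b-KCs from the same DKO* skin were compared with the same b-KC Co libraries, so the 2 comparisons are not independent. Dsg1a, Pkp1, Dsc3, Dsg1b and Dsg2 fell, 5 of 10 against 23.3% of all genes, and Dsc2 rose, where 22.6% of all genes did. The other 4 did not pass. Outside any overlap were 7 lower genes and 1 higher gene, where 34.0% and 31.6% of all genes were.

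Dsg1a was at 46.1, 48.1 and 62.1 FPKM in b-KC Tom, again far under the Co values (log2 fold change -2.53 ± 0.34, adjusted p = 3.93e-05). Pkp1 was at 195, 225 and 216 FPKM (-1.13 ± 0.33, adjusted p = 0.0120). Dsc3 was at 340, 209 and 303 FPKM (-1.04 ± 0.30, adjusted p = 0.0106). Each of these Tom libraries lay under each Co library. Dsg1b, at 30.5, 20.4 and 14.3 FPKM, had a log2 fold change of -1.003 ± 0.33 (adjusted p = 0.0212), and Dsg2, at 10.1, 9.27 and 13.6 FPKM, of -0.85 ± 0.23 (adjusted p = 0.00771). Without mouse 815, 3 of the 10 genes were called (30.0% of all genes, against 45.9% with all mice), and the calls of Dsc3, Dsg1b and Dsg2 were the ones lost (adjusted p 0.0972, 0.0864 and 0.0674). The Dsg1b call was also lost without mouse 825 (adjusted p = 0.0502) or 828 (adjusted p = 0.0511). Summed suprabasal markers were at 3883 to 6984 FPKM in b-KC Tom, with 3 of 6 called lower, and 4 of 6 bulge and 3 of 4 sebaceous markers also fell. All 5 proliferation markers rose, to a sum of 443 to 481 FPKM, as did 1 of 3 leukocyte markers. The part of these markers was not tested. Relative to 12 pan-epithelial genes, Dsc3 also missed the threshold (adjusted p = 0.0551).

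Dsc2 went the other way in non-mutant b-KCs. It was at 6.81, 4.95 and 5.82 FPKM in Co and 33.7, 22.5 and 12.1 in b-KC Tom (log2 fold change 1.69 ± 0.35, adjusted p = 0.00120), with each Tom library above each Co library. Its neighbour Dsc3 fell in these same libraries, as given above. Jup at 315, 399 and 358 FPKM, Dsp at 134, 176 and 175, Dsc1 at 52.0, 35.2 and 11.7 and Dsg3 at 147, 85.7 and 156 did not pass (adjusted p 0.198, 0.0713, 0.204 and 0.581).

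**Figure D2:**
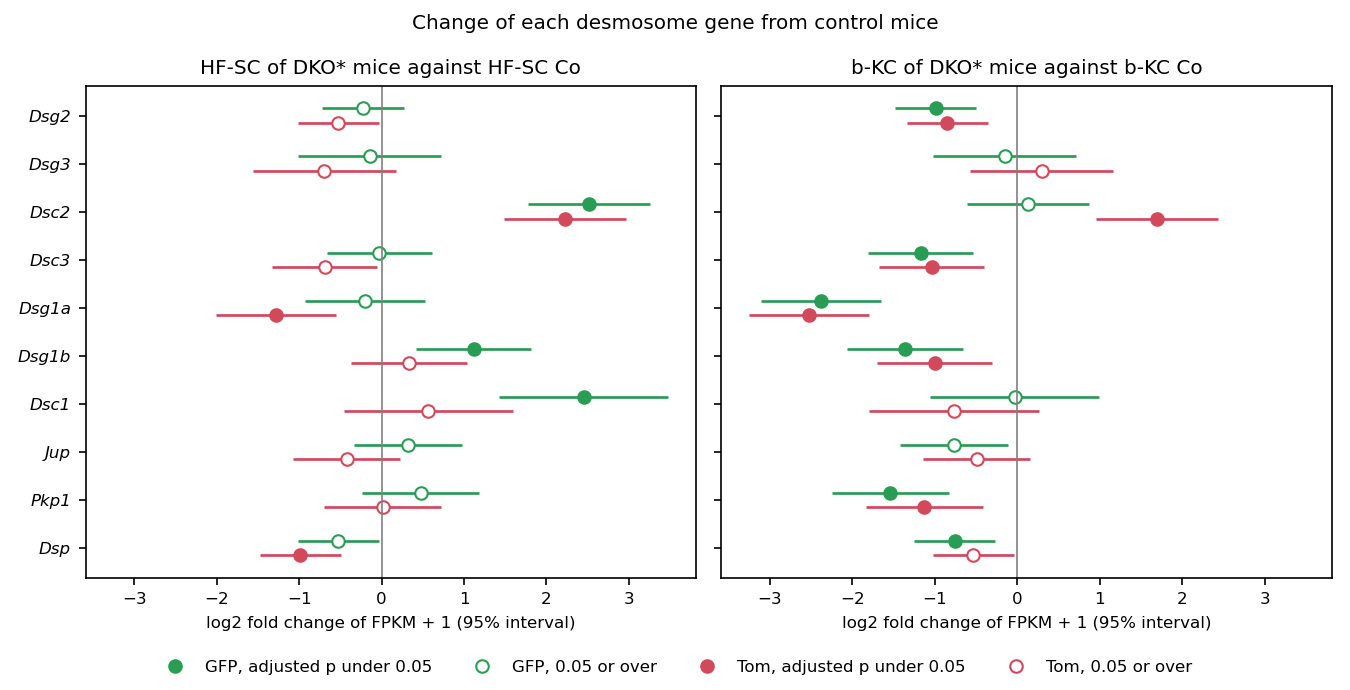
Log2 fold change of FPKM + 1 (points) with 95% interval (lines) for each desmosome gene in GFP (green) and Tom (red) cells of DKO* mice against Co cells of the same type, 3 mice in each group. Filled points have an adjusted p under 0.05 by limma. In b-KCs the points of Dsg1a sit at -2.38 and -2.53, and in HF-SCs those of Dsc2 sit at 2.52 and 2.23.

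Transcript length moved with these differences, and its part in them was tested only by the correction given here. In b-KC GFP against Co, the median log2 fold change over all genes went from 0.62 for transcripts under 1 kb to -0.24 at 4 to 6 kb and -0.45 over 6 kb, where 40.8% of genes were called lower. In b-KC Tom against Co the medians were 0.53, -0.21 and -0.40. Transcripts of the desmosome genes run from 3205 bases (Jup) to 9538 bases (Dsp), so all 10 lie in classes whose median was under 0 (-0.02 at 2 to 4 kb in both comparisons). With each library corrected for its own trend on length, an alternative chosen after seeing the data, Dsg1a (log2 fold change -2.06, adjusted p = 3.44e-05), Pkp1 (-1.32, adjusted p = 0.00179), Dsg1b (-1.22, adjusted p = 0.00619), Dsc3 (-0.88, adjusted p = 0.00466) and Dsg2 (-0.66, adjusted p = 0.00351) were still lower in b-KC GFP. Dsp was not, at -0.24 (adjusted p = 0.415), and in b-KC Tom its corrected value was -0.06 (adjusted p = 0.844).

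**Figure D3:**
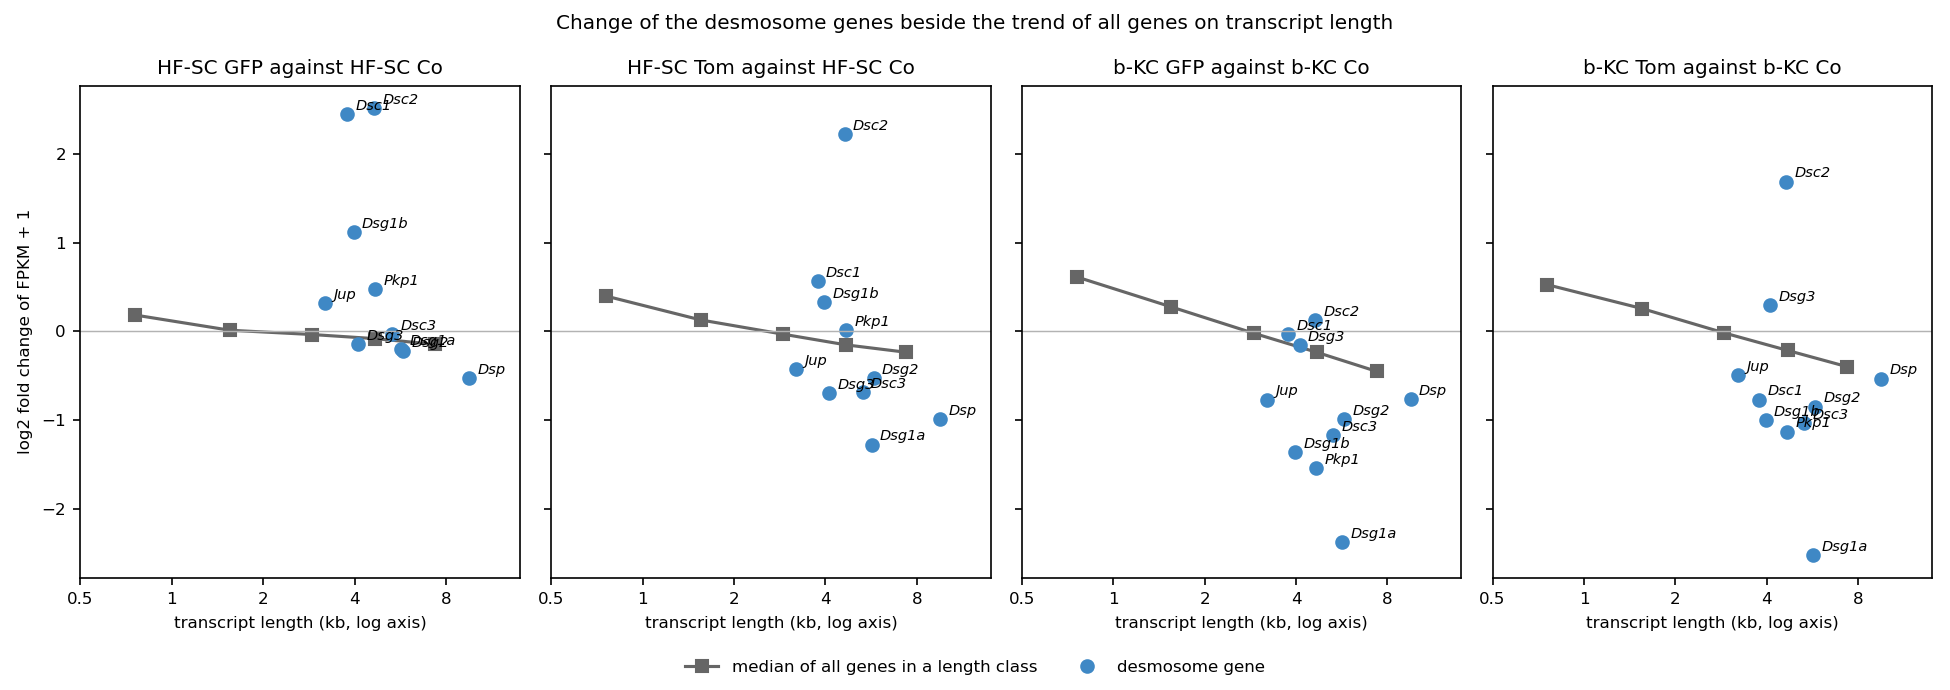
Log2 fold change of FPKM + 1 against transcript length (log axis, kb) for the 10 desmosome genes (blue) and the median of all genes in 5 length classes, drawn at the median length of each class (grey), in the 4 comparisons with Co. In both b-KC panels the grey line falls from above 0 to -0.45 (GFP) and -0.40 (Tom), Dsg1a and Pkp1 lie well under it and Dsp, the longest, close to it.

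In mutant bulge HF-SCs the pattern was another. Dsc2, Dsc1 and Dsg1b rose against HF-SC Co, 3 of 10 where 18.5% of all genes rose, and the remaining 7 genes did not pass the test. The median over the 10 genes was 0.15, and relative to pan-epithelial genes it was -0.03, beside -0.05 and -0.22 for all genes tested. Genes without overlap were 2 higher and 1 lower (Dsp), where 24.7% and 28.0% of all genes were, and 20.0% of all genes were called lower.

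Dsc2, barely present in Co bulge cells at 3.19, 3.99 and 2.81 FPKM, was at 29.8, 29.9 and 14.7 in HF-SC GFP (log2 fold change 2.52 ± 0.35, adjusted p = 4.63e-05). Dsc1 went from 6.77, 14.5 and 6.88 FPKM to 72.5, 78.6 and 25.5 (2.45 ± 0.48, adjusted p = 0.000946). For both, every GFP library lay above every Co library, and mouse 817 gave the lowest GFP value. Dsg1b was at 6.32, 16.3 and 10.3 FPKM in Co and 25.4, 30.9 and 16.2 in HF-SC GFP (1.12 ± 0.33, adjusted p = 0.0137). Here mouse 817 lay just under the highest Co library, and the call was lost without mouse 810 or 815 (adjusted p 0.0930 and 0.116). Summed suprabasal markers were at 1741 to 3512 FPKM in HF-SC GFP and 765 to 976 in Co, and their part was not tested. Of 8 endothelial markers, 8 fell in HF-SC GFP, to a sum of 1.27 to 25.97 FPKM. Of 6 bulge markers 3 fell, Cd34 among them, and of 5 proliferation markers 5 rose, to a sum of 154 to 247 FPKM from 23.1 to 29.2 in HF-SC Co. Of the remaining lists, 2 of 3 leukocyte and 3 of 5 melanocyte markers rose. The part of these markers was not tested.

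The other 7 genes did not pass the test in mutant bulge cells. Dsg1a was at 46.7, 54.96 and 64.1 FPKM, inside the Co range of 46.5 to 84.7 (log2 fold change -0.20, adjusted p = 0.678). Dsc3 was at 396, 444 and 693 FPKM, Dsg3 at 172, 176 and 317 and Dsg2 at 13.3, 16.0 and 17.5, all overlapping Co (adjusted p 0.946, 0.809 and 0.467). Pkp1 at 110, 170 and 169 FPKM and Jup at 179, 257 and 214 also overlapped Co (adjusted p 0.276 and 0.431). Dsp was at 108, 109 and 115 FPKM, each value under the lowest Co value of 121, and missed the threshold (-0.52 ± 0.23, adjusted p = 0.0866). It passed in 2 of 16 alternatives, 1 of them without mouse 828 (adjusted p = 0.0480). Over all 16 the fold change lay between -0.72 and -0.22, with adjusted p-values up to 0.445.

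In non-mutant bulge HF-SCs, Dsc2 rose as well, and Dsg1a and Dsp fell. That is 1 higher and 2 lower of 10, where 22.3% and 22.1% of all genes were called. By overlap, 1 gene was higher and 1 lower in every library, where 24.4% and 24.6% of all genes were. Dsc2 was at 18.1, 14.9 and 25.8 FPKM in HF-SC Tom against 2.81 to 3.99 in Co, without overlap (log2 fold change 2.23 ± 0.35, adjusted p = 0.000108). Dsg1a was at 15.01, 22.8 and 47.2 FPKM against 46.5, 84.7 and 63.2 (-1.28 ± 0.34, adjusted p = 0.00697), with mouse 817 inside the Co range. Dsp was at 65.6, 75.2 and 105 FPKM against 244, 138 and 121, without overlap (-0.98 ± 0.23, adjusted p = 0.00298). The Dsg1a call was lost without mouse 815 (adjusted p = 0.0571) and when only these groups were fitted (adjusted p = 0.0508).

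The count in HF-SC Tom differed with and without mouse 817. The HF-SC Tom library of this mouse was at 305 FPKM for Dsg3, 257 for Jup and 223 for Pkp1, where those of mice 814 and 815 were at 91.8 and 107, 75.9 and 107, and 64.9 and 81.7. Without mouse 817, a fit that drops all 4 of its libraries, 8 of 10 genes were called instead of 3, and calls over all genes went from 44.4% to 59.4%. Among the 8 were Dsg3 at -1.23 (adjusted p = 0.000211), Jup at -0.92 (adjusted p = 0.00125) and Pkp1 at -0.52 (adjusted p = 0.0436), the last reversed from 0.01 (adjusted p = 0.981) with all mice. With the mouse as a block, 5 genes were called (45.1% of all genes), with Dsc3 (-0.69, adjusted p = 0.0487) and Dsg2 (-0.53, adjusted p = 0.0428) added. Of 8 endothelial markers, 8 rose in HF-SC Tom, to sums of 1235, 1211 and 415 FPKM in mice 814, 815 and 817. Summed fibroblast markers were at 95.4, 115 and 13.9 FPKM in the same libraries. Of 6 bulge markers 5 fell, and 5 of 5 proliferation markers rose, to a sum of 239 to 304 FPKM. Of 6 suprabasal markers 3 rose and 2 fell, 1 of 3 leukocyte markers rose, and 1 of 5 fibroblast and 1 of 5 basal keratinocyte markers fell. The part of these markers was not tested. Relative to pan-epithelial genes, whose use moved the median of all genes from -0.04 to 0.35, Dsc2 (2.62, adjusted p = 3.97e-06) and Dsg1a (-0.89, adjusted p = 0.0414) kept their calls and Dsp did not (-0.59, adjusted p = 0.0823).

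Mutant and non-mutant cells of the same mice were set against each other directly. In HF-SCs, all 10 genes had a higher mean log2 level in GFP than in Tom, but only Dsc1 passed, 1 of 10 where 2.83% of all genes were higher and 5.80% lower. In 2 genes the GFP libraries lay above all Tom libraries and in none below, where 8.41% and 10.2% of all genes did. In the same comparison 8 of 8 endothelial markers were lower in GFP (median log2 fold change -4.76), and 2 of 6 suprabasal (median 0.97), 1 of 3 leukocyte and 1 of 5 melanocyte markers were higher. The part of these markers was not tested. Dsc1 was at 72.5, 78.6 and 25.5 FPKM in GFP and 12.2, 14.6 and 13.96 in Tom (log2 fold change 1.88 ± 0.48, adjusted p = 0.0210), and the GFP library was higher 5.93, 5.38 and 1.83 times in mice 814, 815 and 817. The call was lost without mouse 814 (adjusted p = 0.199) or 815 (adjusted p = 0.315) and when only these groups were fitted (adjusted p = 0.0648). Dsg3, Dsc3, Dsp and Dsg1a were also higher in GFP in 3 of 3 mice, Dsg1a by 3.11, 2.41 and 1.36 times. The remaining 5 were higher in mice 814 and 815 and lower in mouse 817, where the ratio of GFP to Tom was 0.567 for Dsc2, 0.757 for Pkp1, 0.788 for Dsg1b, 0.834 for Jup and 0.937 for Dsg2. Dsg1a missed the threshold (1.08 ± 0.34, adjusted p = 0.0646), and missed it with the mouse as a fixed block (adjusted p = 0.0723). It passed in 3 of 17 alternatives, with the mouse as a random block (adjusted p = 0.00868), without mouse 817 (adjusted p = 0.000608) and with the length correction (adjusted p = 0.0138). Without mouse 817, 7 genes were called, all higher, while 11.7% of all genes were then called higher and 11.2% lower. Relative to pan-epithelial genes, the median over the 10 genes went from 0.61 to 0.04 and that over all genes from 0.02 to -0.54.

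In b-KCs, Dsc2 was the gene that passed, lower in GFP, where 0.518% of all genes were lower and 1.19% higher. By overlap, 2 genes were lower in every GFP library and none higher, where 7.35% and 8.48% of all genes were. Dsc2 was at 8.72, 7.72 and 3.84 FPKM in GFP and 33.7, 22.5 and 12.1 in Tom (log2 fold change -1.57 ± 0.35, adjusted p = 0.0327). The GFP library was at 0.259, 0.343 and 0.318 times the Tom library of its own mouse, a ratio that hardly varied while levels differed between mice. The call held with the mouse as a random block (adjusted p = 0.00601) or a fixed one (adjusted p = 0.0138). It was lost without mouse 810, 814, 815, 825 or 828 (adjusted p 0.0648 to 0.321), where the fold change lay between -1.63 and -1.43, when only these groups were fitted (adjusted p = 0.217) and without the filter on low values (adjusted p = 0.0606). The other 9 genes had adjusted p-values of 0.688 to 0.984.

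GFP cells and Co cells differ in deletion and come from different mice, so their comparison is not of deletion alone. Whether the GFP change from Co differed between the 2 cell types was tested by the interaction, that in HF-SCs minus that in b-KCs. It passed for Dsg1b, Dsc2, Dsg1a, Pkp1 and Dsc1, 5 of 10, each higher in HF-SCs, where 7.31% of all genes were (5.22% lower). The interaction was 2.48 ± 0.47 for Dsg1b (adjusted p = 0.00283), 2.39 ± 0.49 for Dsc2 (adjusted p = 0.00517) and 2.18 ± 0.48 for Dsg1a (adjusted p = 0.00814). Pkp1 had 2.02 ± 0.47 (adjusted p = 0.0109) and Dsc1 2.49 ± 0.68 (adjusted p = 0.0258). These 5 genes got there by different routes: Dsc2 and Dsc1 rose in HF-SCs and did not pass in b-KCs, Dsg1b rose in HF-SCs and fell in b-KCs, and Dsg1a and Pkp1 fell in b-KCs without passing in HF-SCs. In the same interaction 4 of 6 suprabasal markers (median 2.16), 5 of 5 proliferation markers (median 1.90), 1 of 3 leukocyte and 1 of 4 sebaceous markers were higher in HF-SCs, and 1 of 6 bulge and 1 of 8 endothelial markers lower. The part of these markers was not tested. None was called without mouse 815 (adjusted p 0.0560 to 0.158), 3 were without mouse 810 or 828, and 8 without mouse 817. Over all genes, calls went from 12.5% to 3.35% without mouse 815, 5.78% without 810, 5.90% without 828 and 30.8% without 817. With the mouse as a block 8 were called (22.6% of all genes), with Dsc3 (1.14, adjusted p = 0.0203), Dsg2 (0.76, adjusted p = 0.0331) and Jup (1.09, adjusted p = 0.0448) added.

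For the non-mutant cells, limma called 0 of 10 interactions and 3 had an unadjusted p under 0.05, where 10.3% of all genes were called higher in HF-SCs and 5.58% lower. Endothelial (8 of 8), proliferation (5 of 5), suprabasal (1 of 6) and sebaceous (2 of 4) markers were called higher there, and their part was not tested. With the mouse as a block, Dsg1a (log2 1.25, adjusted p = 0.0192), Dsg1b (1.34, adjusted p = 0.0343) and Pkp1 (1.14, adjusted p = 0.0440) were called, as were 23.9% of all genes. In the main fit, the 5 genes called in mutant cells had Tom interactions of 1.34 (Dsg1b), 0.54 (Dsc2), 1.25 (Dsg1a), 1.14 (Pkp1) and 1.34 (Dsc1). The GFP and Tom interactions were not tested against each other.

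Cadherins were set beside each other as shares of the summed FPKM of all 7, which is per length but not corrected for the trend on transcript length. This sum was 1098 ± 88.5 FPKM in Co (SD, n = 3), 508 ± 163 in GFP and 554 ± 116 in Tom b-KCs, and 856 ± 167, 911 ± 208 and 581 ± 260 in HF-SC Co, GFP and Tom. Dsc3 made up most of it in every group, from 50.997% ± 2.17 (b-KC Tom) to 59.9% ± 1.25 (HF-SC Co). In b-KCs its mean share was 52.3% in Co, 51.7% in GFP and 50.997% in Tom, but with Dsg1a and Dsg1b left out of the sum it was 76.3% ± 1.72, 60.8% ± 5.10 and 59.0% ± 1.71. Dsg1a took 27.6% ± 0.41 of the sum in Co, 11.7% ± 1.65 in GFP and 9.67% ± 2.32 in Tom b-KCs, and 7.48% ± 0.80 in HF-SC Co.

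Dsg3 took 9.32% ± 0.35 in Co, 18.8% ± 3.15 in GFP and 23.2% ± 3.76 in Tom b-KCs, beside 27.7% ± 0.39 in HF-SC Co. The FPKM of Dsg3 itself did not pass the test in either comparison with b-KC Co. Within the desmogleins, Dsg1a and Dsg1b together held 73.8% ± 1.03 in Co, 42.2% ± 4.27 in GFP and 35.2% ± 5.85 in Tom b-KCs. Reads shared between the 2 copies, or with Dsg1c outside the sum, limit this share too. Dsg1a, Dsg1b and Dsc1, the suprabasal type, came to 36.0% ± 1.65, 26.1% ± 5.69 and 19.7% ± 4.36 of all cadherin FPKM in the same groups, and to 9.78% ± 1.44, 16.1% ± 5.93 and 9.67% ± 0.63 in HF-SC Co, GFP and Tom. The share of Dsc2 was 0.395% ± 0.08 in HF-SC Co, 2.94% ± 1.45 in GFP and 3.57% ± 0.90 in Tom. The shares carry no test, since they sum to the whole and the genes were chosen together. The cadherin transcripts run from 3775 bases (Dsc1) to 5766 bases (Dsg2), and the part of the trend on length in the shares was not tested.

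**Figure D4:**
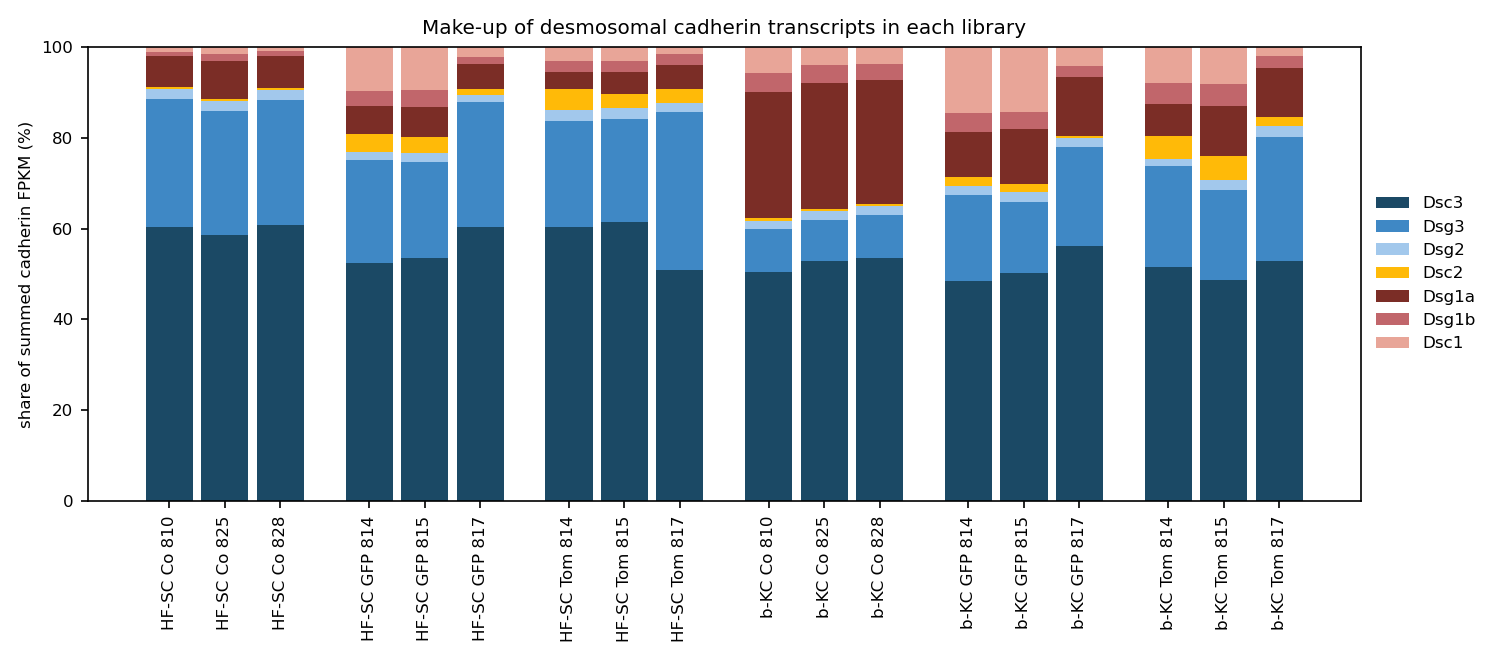
Share (%, bars stacked to 100) of each desmosomal cadherin in the summed FPKM of the 7 cadherins, with 1 bar for each of 18 libraries labelled by group and mouse. Dsg1a (dark red) takes 27.1% to 27.9% in the 3 b-KC Co bars and 13.1% or less in every other bar, and Dsc3 (dark blue) takes 48.5% or more in all 18.

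On the plaque side, the summed FPKM of Jup, Pkp1 and Dsp was 1201 ± 66.0 in Co, 594 ± 86.2 in GFP and 731 ± 79.7 in Tom b-KCs, so it was lower along with the cadherin sum. Pkp1 gave 38.8% ± 1.89 of the plaque sum in b-KC Co, 27.0% ± 1.31 in GFP and 29.1% ± 1.10 in Tom. The plaque values are not corrected for transcript length either. Plakophilin 3 (Pkp3), a plakophilin of all epidermal layers, had 0.771 ± 0.03 times the FPKM of Pkp1 in Co, 1.54 ± 0.13 times in GFP and 1.23 ± 0.10 times in Tom b-KCs, and 2.19 ± 0.32 times in HF-SC Co.

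Other desmosome genes (9 listed, 7 tested) were tested in the same fit. In b-KC Co against HF-SC Co, 6 of 7 were higher, the largest changes being in corneodesmosin (Cdsn, 1.77), envoplakin (Evpl, 1.61) and Pkp4 (1.302). In b-KC GFP 5 of 7 fell, with Cdsn at -1.86 (adjusted p = 0.0178), periplakin (Ppl) at -1.67 (adjusted p = 0.00168) and Evpl at -1.36 (adjusted p = 0.00418), and in b-KC Tom 4 of 7 fell, with the same 3 at -2.98, -1.80 and -1.15. Cdsn marks the desmosomes of the outermost layers, and Evpl and Ppl are plakins that dimerize in the cornified envelope. In HF-SC GFP only Pkp4 rose (0.80, adjusted p = 0.0158). In HF-SC Tom Pkp4 rose (1.43) and Ppl (-1.33) and Pkp3 (-0.65) fell.

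Adherens junction genes (12 of 12 tested) were mixed: 3 rose and 2 fell in HF-SC GFP, 1 rose and 4 fell in HF-SC Tom, and 1 rose and 6 fell in each b-KC group of DKO* mice. Among them E-cadherin (Cdh1) fell by 1.05 and 1.12 in GFP and Tom b-KCs, P-cadherin (Cdh3) rose by 0.91 and 1.04 in the same groups, and nectin 4 (Pvrl4) fell there by 0.98 and 1.40 and rose by 1.52 in HF-SC GFP, all as log2 fold change. The interaction of Pvrl4 in GFP cells was 2.501 (adjusted p = 0.00204). Of 6 hemidesmosome genes, which anchor basal cells to the basement membrane, 2 fell in each HF-SC group of DKO* mice, 3 in mutant b-KCs and 2 in non-mutant b-KCs, with Col17a1 and Dst among them in all 4 comparisons.

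Of 9 keratins, the filaments that desmosomes hold, 4 rose in each DKO* group, and Krt10 fell in mutant (-1.56) and non-mutant b-KCs (-1.90). The test also called Krt14 lower in non-mutant b-KCs, but it is listed at 0 in 2 of the 3 libraries and stood at 11448 FPKM in the other one, above the 9817 to 10560 FPKM of b-KC Co, so no fall is read from it. The rises were led by Krt6b with log2 fold changes of 7.73 and 6.75 in GFP and Tom HF-SCs and of 5.84 and 5.94 in GFP and Tom b-KCs. Among 4 genes for peptidases that cleave desmosomal cadherins and their inhibitor, Klk5 fell in b-KC GFP (-1.81, adjusted p = 0.00804), in b-KC Tom (-3.23, adjusted p = 9.12e-05) and in HF-SC Tom (-1.51, adjusted p = 0.0191). Klk14 rose in HF-SC GFP (1.18, adjusted p = 0.00634). The inhibitor gene Spink5 rose in HF-SC GFP (1.46, adjusted p = 0.0116) and fell in b-KC Tom (-2.08, adjusted p = 0.00101).

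The genes that tracked each desmosome gene most closely over the 18 libraries, by Pearson's r of log2(FPKM + 1), were C77080 for Jup (0.98), Cobl for Dsg1a (0.97), Erbb2 for Pkp1 (0.97), Elovl4 for Dsc1 (0.97), Pigg for Dsc3 (0.97) and Maml3 for Dsg2 (0.97). Those of Dsg3 (Wdr35, 0.94), Dsp (Zfp219, 0.93), Dsg1b (Gpr111, 0.92) and Dsc2 (Sprr2k, 0.91) were less close. Among the 10 genes themselves, Dsg2 and Dsc3 (0.94) and Jup and Pkp1 (0.93) were the closest pairs. These values describe libraries that share mice, depth and the trend on transcript length, and they carry no p-value.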

How the data were processed

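Sorted ear skin cells were profiled in 18 libraries, 3 mice in each of 6 groups taken from the sample labels. Libraries were non-directional and amplified from small RNA amounts. Reads of 51 bases from a single end were mapped by the authors with TopHat 2.0.10 and Bowtie 1.0.0, allowing 2 mismatches and several hits per read, on the mouse assembly NCBI37/mm9. The deposited FPKM values, 1 for each gene in each library, came from Cufflinks (2.2.1 in the submitters' processing notes).

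The 12751 genes reaching 1 FPKM in 3 or more libraries entered a limma fit (version 3.58.1, R 4.3.3) on log2(FPKM + 1), where the added 1 understates changes of low genes. The fit had 1 mean per group and eBayes with a trend. P-values were adjusted by Benjamini-Hochberg within each of 9 comparisons over all genes tested, and calls are at an adjusted p under 0.05. Each group is 3 mice, and the 4 DKO* groups share theirs. Depth was read from steps of low FPKM values in 7148 single-transcript genes (79.4% to 83.2% within 0.1 of a whole read) and covers counting error only. PCR copies carry no molecular identifiers. Shares and figures were made with Python 3.11.15, matplotlib 3.10.9, numpy 2.4.6 and pandas 2.3.3. The test was tried on simulated data.

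The 10 genes and all lists were chosen with earlier results of these data known. Of each further list, up to 3 called genes with the largest change per comparison could be named, and not all of these are given. Krt10, and Cdh3 in b-KC Tom, lie outside this rule and were named after their values were seen. Mouse numbers in the labels pair libraries of the same animal, and deviations from group means in the same mouse correlated at 0.084 to 0.70 over genes. Fits with the mouse as a block (consensus correlation 0.274) stand beside a result where they change it. Alternatives were pseudocount 0.1, no filter, the compared groups alone, no trend, 3 rescalings, zeros of expressed genes as missing, stricter thresholds, each mouse left out, the block and a correction for transcript length (11504 genes with a length, 90.2%). Promoter motifs were searched on both strands in RefSeq promoters, where Jup and Dsp had an entry used here.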

Additional observations from a re-analysis of the deposited data

Results flagged for a closer look

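For 5 desmosome genes, the change from Co differed between mutant HF-SCs and mutant b-KCs by the interaction term in limma. The HF-SC change minus the b-KC change, in log2 units, was 2.49 for Dsc1 (adjusted p = 0.0258), 2.39 for Dsc2 (adjusted p = 0.00517), 2.18 for Dsg1a (adjusted p = 0.00814), 2.48 for Dsg1b (adjusted p = 0.00283) and 2.02 for Pkp1 (adjusted p = 0.0109). Suprabasal (4 of 6, median 2.16) and proliferation markers (5 of 5, median 1.90) were called higher in the same interaction, and their part was not tested. All 5 genes missed the threshold without mouse 815, where 3.35% of all genes were called, and reads of Dsg1a and Dsg1b are not fully separable.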

How the results depend on the processing

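Counts of called desmosome genes, in the order of the main text, were 6 for b-KC Co against HF-SC Co, 3 for HF-SC GFP, 3 for HF-SC Tom, 6 for b-KC GFP and 6 for b-KC Tom against Co, 1 for GFP against Tom in HF-SCs, 1 in b-KCs, 5 for the GFP interaction and 0 for the Tom interaction. At an adjusted p under 0.01 they were 3 for b-KC Tom (30.8% of all genes), 0 for GFP against Tom in each cell type (4.99% and 0.486%) and 3 for the GFP interaction (5.21%). When the log2 change had also to reach 2 in size, they were 3 for b-KC Co against HF-SC Co (5.65% of all genes), 1 for HF-SC Tom (4.09%), b-KC Tom (2.75%) and b-KC GFP (1.87%) against Co, 0 for GFP against Tom in HF-SCs (1.98%) and b-KCs (0.0863%) and 3 for the GFP interaction (0.863%). Leaving out each mouse in turn gave 2 to 8 for HF-SC Tom (31.0% to 59.4% of all genes), 3 to 8 for b-KC Tom (30.0% to 57.6%), 0 to 7 for GFP against Tom in HF-SCs (3.33% to 22.9%), 0 to 1 in b-KCs (0.00784% to 6.67%), 0 to 8 for the GFP interaction (3.35% to 30.8%) and 0 to 2 for the Tom interaction (7.04% to 25.4%). The shares of all genes moved over these fits too. The replicate block (mouse as a random effect) gave 5 for HF-SC Tom (45.1%), 2 for GFP against Tom in HF-SCs (13.6%), 8 for the GFP interaction (22.6%) and 3 for the Tom interaction (23.9%), and it changed no call beyond the ones added in the text. Correction for transcript length, chosen after seeing the data, gave 5 for HF-SC Tom (51.2%, from 44.4%) and 2 for GFP against Tom in HF-SCs (11.6%, from 8.63%). With the compared groups alone both GFP against Tom counts were 0 (2.94% of all genes in HF-SCs, 0.0235% in b-KCs), without the filter the b-KC one was 0 (0.969%), and relative to pan-epithelial genes the Tom interaction count was 2 (12.2%). The causes of these shifts were not tested. The one called reversal was Pkp1 in HF-SC Tom without mouse 817 (-0.52, against up to 0.36 without another mouse). Of 1460 single-gene values under alternatives, 1368 stayed on their side of the threshold, 52 passed it anew, 39 no longer passed it, and 37 values changed sign with neither version past it.

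Relative to pan-epithelial genes, the share of higher genes among all called genes went from 52.6% to 19.7% in b-KC Co against HF-SC Co, 48.2% to 34.1% in HF-SC GFP, 50.2% to 86.1% in HF-SC Tom, 49.2% to 67.2% in b-KC Tom, 32.8% to 1.49% and 69.7% to 24.2% for GFP against Tom in HF-SCs and b-KCs, and 64.7% to 88.8% in the Tom interaction. A common 75th percentile made it 38.7% in b-KC Co against HF-SC Co, and length correction 45.9% in the Tom interaction. Each group had 3 mice, 1 mouse stood apart in DKO* skin, and a gene that missed the threshold is not shown to be unchanged.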

Other observations

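Mouse 817 stood apart from mice 814 and 815 in several desmosome genes. Its GFP libraries had the highest Dsc3 of their groups (693 FPKM for HF-SCs, 391 for b-KCs) and the highest Dsg3 (317 and 152 FPKM), and the lowest Dsc1 (25.5 and 29.3 FPKM) and Dsc2 (14.7 and 3.84 FPKM). The same libraries had the lowest Jun, at 30.4 FPKM in HF-SC GFP and 29.6 in b-KC GFP, and its Tom libraries had the highest, at 614 and 400.4 FPKM. Per library, the median deviation of transcripts of at least 4 kb minus that of transcripts under 2 kb was -0.82, -0.77 and -0.09 on the log2 scale in b-KC GFP of mice 814, 815 and 817, so mouse 817 was also nearest to the Co values of 0.06, 0.18 and 0.21 in this respect. Its HF-SC Tom library had the lowest endothelial marker sum of its group, at 415 FPKM against 1235 and 1211 in mice 814 and 815. The fibroblast marker sum of that library was also the lowest, at 13.9 FPKM against 95.4 and 115. The part of any of these in the levels of mouse 817 was not tested.

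Dsg1b made up 12.4% ± 0.69 (SD, n = 3) of the summed Dsg1a and Dsg1b FPKM in b-KC Co and 14.01% ± 2.08 in HF-SC Co, but 22.4% ± 7.16 and 29.5% ± 10.6 in b-KC GFP and Tom and 30.5% ± 8.89 and 34.2% ± 4.02 in HF-SC GFP and Tom. Every DKO* library except b-KC GFP of mouse 817 was above all 6 Co libraries. Reads that match both copies limit this value. The transcripts also differ in length, at 5686 bases for Dsg1a and 3965 for Dsg1b, and the part of the trend on length was not tested.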
